A study of Mus musculus with 2 samples.

Results

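The genes described here are those of the mitochondrial genome and of the mitochondrial ribosome, chosen by symbol alone: 13 genes whose symbol begins with mt- and 78 whose symbol begins with *Mrpl* or *Mrps*, 91 of the 32285 genes in the count tables. They were measured in Cajal-Retzius (CR) cells, the early-born *Reln*-expressing neurons of the cortical surface, sorted from the mouse hippocampus at postnatal day 14 as tdTomato-positive, DAPI-negative cells and profiled as 2 droplet single-cell libraries that count unique molecular identifiers (UMIs) at the 3′ end of transcripts. The control library came from 4 pooled mice (3 male and 1 female) with ΔNp73-Cre, 1 floxed *Cic* allele (Cic flox/+) and the tdT reporter. The knockout library came from 4 pooled littermates (2 male and 2 female) with ΔNp73-Cre, Cic flox/flox and the same reporter. All mice therefore carried Cre, tdT and at least 1 floxed allele of *Cic*, which encodes a transcriptional repressor. The control is a conditional heterozygote, the Cre acts in the lineage that expresses ΔNp73, and the study found CIC lost in only part of the CR cells of the knockout.

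The mitochondrial genome encodes 13 proteins, all of them subunits of the respiratory chain or of ATP synthase. They are made inside the organelle by a dedicated ribosome whose RNAs come from the same genome and whose proteins are encoded in the nucleus, made in the cytosol and imported. A mitochondrion thus draws on messengers of both origins: the genome-encoded ones stay inside it, and the *Mrp* messengers lie in the nucleus and cytosol.

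The 13 genes lie on chromosome M, 12 on the plus strand of the annotation and *mt-Nd6* alone on the minus strand (GRCm38, GENCODE M21). By protein they fall into 7 subunits of complex I (*mt-Nd1* to *mt-Nd6* and *mt-Nd4l*), 1 of complex III (*mt-Cytb*), 3 of complex IV (*mt-Co1* to *mt-Co3*) and 2 of ATP synthase (*mt-Atp6* and *mt-Atp8*). Neighbours share bases. *mt-Atp8* (chrM:7766-7969) and *mt-Atp6* (chrM:7927-8607) overlap by 43 bases and are read from 1 messenger. *mt-Nd4l* (chrM:9877-10173) and *mt-Nd4* (chrM:10167-11544) overlap by 7 bases, also on 1 messenger. *mt-Nd5* and *mt-Nd6* overlap by 14 bases on opposite strands. *mt-Atp6* and *mt-Co3* share 1 base on the same strand (chrM:8607). The overlaps of 43 and 7 bases are shown in capitals with 27 bases on either side. The values of these pairs differ below, and a UMI within the capitals cannot be credited to 1 gene. The windows are chrM:7900-7996 and chrM:10140-10200, plus strand, 5′ to 3′.

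mt-Atp8 and mt-Atp6: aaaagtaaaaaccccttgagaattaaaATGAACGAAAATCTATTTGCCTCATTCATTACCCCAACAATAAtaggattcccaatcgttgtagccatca

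mt-Nd4l and mt-Nd4: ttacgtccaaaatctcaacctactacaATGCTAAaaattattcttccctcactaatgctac

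The 49 *Mrpl* genes (called large subunit here) and 29 *Mrps* genes (called small subunit here) are spread over 17 chromosomes, with at most 11 on 1 of them (chromosome 11). These names follow the symbol alone. Whether each protein sits in the particle that its symbol names was not checked. All 91 identifiers were found in the annotation. The longest coding transcript had a median of 784 bases for the genome-encoded genes, 1339 for the large subunit and 1197 for the small subunit.

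Barcodes with at least 2000 UMIs and at least 5 *Reln* UMIs were taken as CR cells: 1003 in the control (median 6224 UMIs, 6981296 in all) and 390 in the knockout (median 6664, 2937321 in all). No barcode sequence was shared between the 2 sets. All 8 CR markers were detected in both, *Trp73* in 88.7% and 92.3% of barcodes, whereas the GABAergic markers *Gad1* and *Gad2* had 1 UMI each per library. *Cic* itself had 55.7 CPM (UMIs scaled to a total of 1000000) in the control and 48.3 in the knockout, but 3′ UMIs need not come from the deleted part, so this does not check the labels. Each genotype is 1 library, so no test between genotypes was possible. The 95% intervals given with shares (exact binomial) and with ratios (exact, conditional) cover counting error only, not differences between mice or libraries. A share is part of a whole: it also moves when other transcripts in the same barcodes do.

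Genome-encoded messengers made up 2.98% of all UMIs of control CR cells (2.97 to 2.99) and 3.62% of those of knockout CR cells (3.60 to 3.64). The 78 mitoribosome genes together made up 0.201% (0.198 to 0.204) and 0.207% (0.202 to 0.212). There were hence 14.8 genome-encoded UMIs for each mitoribosome UMI in the control and 17.5 in the knockout. Since 1 captured molecule gives 1 UMI whatever its length, the order of genes below is an order of UMIs, and it also depends on how well each messenger is captured. The ATP synthase subunit gene *mt-Atp6* led in both libraries, with 0.671% of all UMIs in the control and 0.860% in the knockout. The complex IV genes *mt-Co2*, at 0.476% and 0.600%, and *mt-Co3*, at 0.371% and 0.478%, came next. *mt-Cytb*, the only complex III subunit of this genome, followed at 0.309% and 0.394%, ahead of *mt-Co1* of complex IV at 0.280% and 0.312%. Complex I subunits were lower and more spread. *mt-Nd4*, *mt-Nd2* and *mt-Nd1* lay between 0.184% and 0.201% in the control. *mt-Nd4l* and *mt-Nd3* lay at 0.0991% and 0.0816%. *mt-Nd5* reached 0.0356%, and *mt-Nd6*, from the other strand, only 0.00858% of all UMIs, with a UMI in 411 of the 1003 control barcodes. The lowest of these values thus belonged to the gene on the minus strand.

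**Figure D1:**
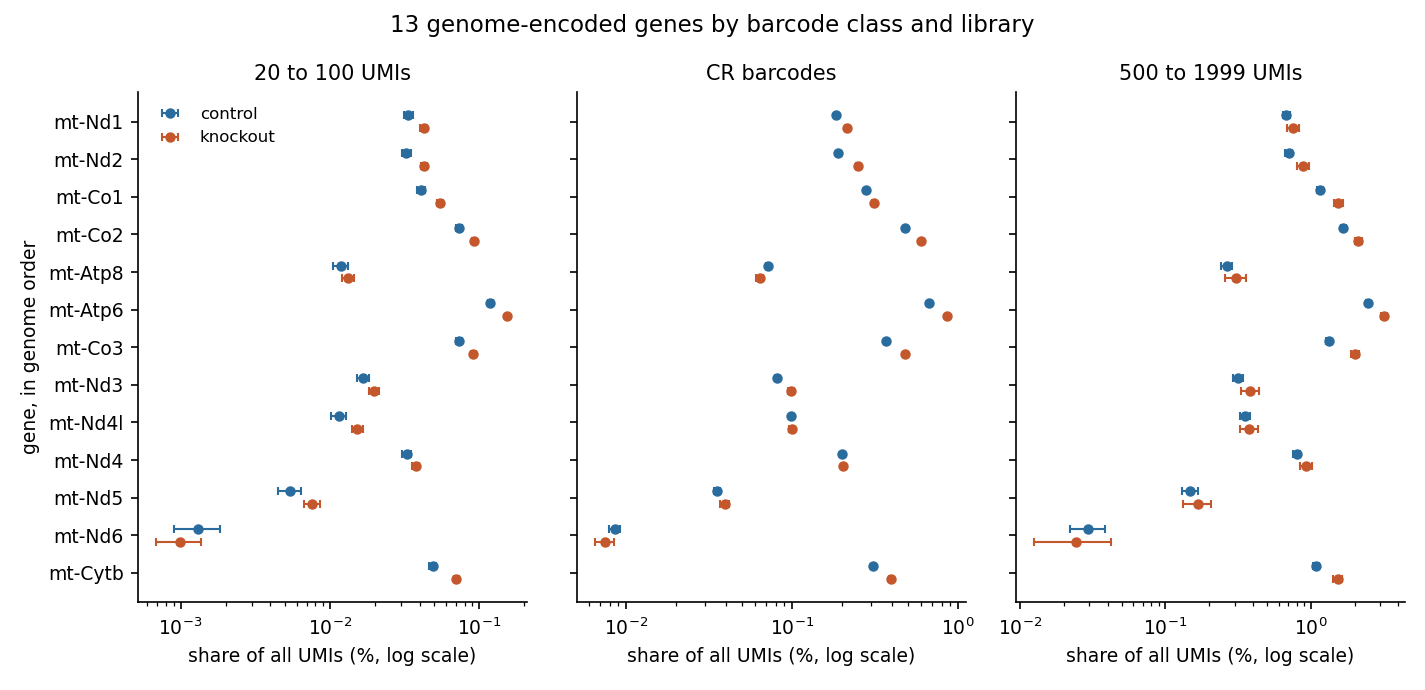
Share of all UMIs (per cent, log scale) of each genome-encoded gene in genome order, in droplets of 20 to 100 UMIs, CR barcodes and barcodes of 500 to under 2000 UMIs. Points are the control and knockout libraries and bars are exact 95% binomial intervals; *mt-Atp6* is the highest gene in each panel and *mt-Nd6* the lowest.

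Between genotypes, the summed genome-encoded share of CR cells was 1.22 times as high in the knockout library (1.21 to 1.22), while the summed mitoribosome share was 1.03 times as high (0.999 to 1.06). The difference in genome-encoded share held over most of the range of single barcodes but left them broadly overlapping. The median barcode had 3.22% in the control (quartiles 1.84 and 4.19) and 3.82% in the knockout (quartiles 2.48 and 4.97). Barcodes under 2% made up 27.8% of control and 17.9% of knockout CR cells, and those over 5% made up 11.2% and 24.6%. For the mitoribosome genes the medians were 0.159% and 0.165%, on 10 and 11 UMIs per barcode. With control depth weighted as in the knockout, the ratio of the summed genome-encoded share was 1.24. The direction was not the same in every depth class, and the reason for this was not tested. In the shallowest CR barcodes (2000 to under 4000 UMIs, 102 control and 27 knockout) the genome-encoded share was lower in the knockout, 2.90% against 3.51%. It was higher at 4000 to under 8000 UMIs (4.10% against 3.30%), at 8000 to under 16000 (3.46% against 2.63%) and at 16000 or more (1.84% against 1.70%). Among the *Pcp4*-high barcodes described below the ratio of knockout to control was 1.18 (1.15 to 1.22), and among all other CR barcodes 1.21 (upper bound 1.22). Among other groups of transcripts, the cytosolic ribosomal protein genes (*Rpl* and *Rps* without *Rps6k*) gave a ratio of 0.889, the nuclear genes of the respiratory chain gave 1.05 and 6 nuclear-retained RNAs led by *Malat1* and *Meg3* gave 0.990.

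**Figure D2:**
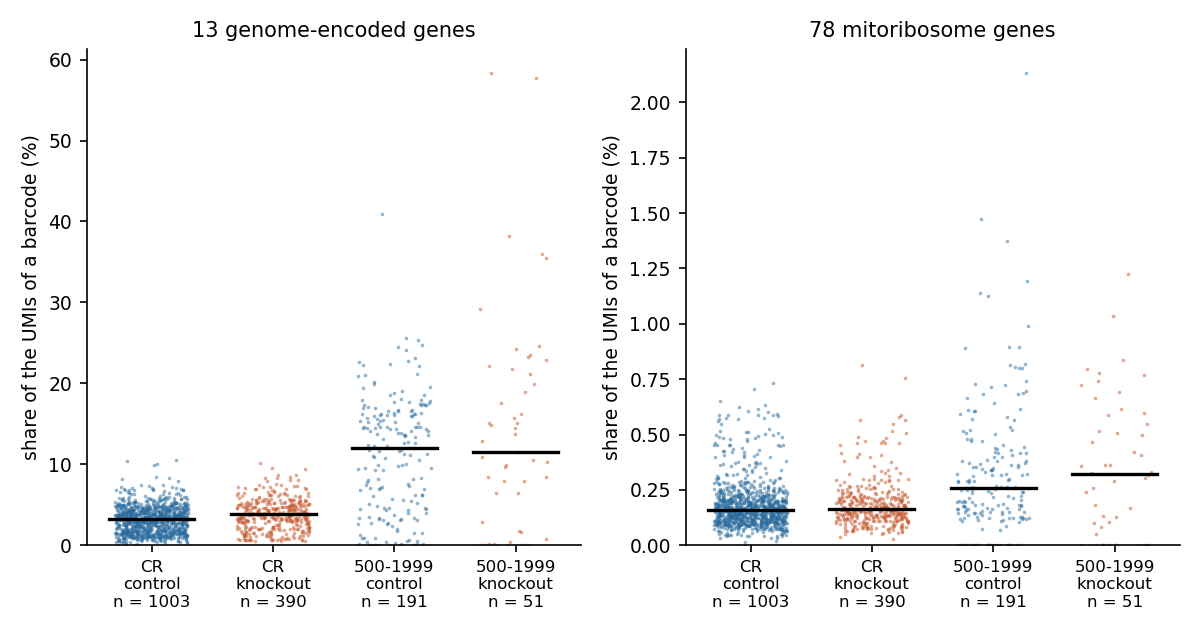
Share of the UMIs of single barcodes (per cent) held by the 13 genome-encoded genes (left) and the 78 mitoribosome genes (right), in CR barcodes and in barcodes of 500 to under 2000 UMIs of each library. Each point is a barcode and the black line is the median; the CR medians of the genome-encoded genes are 3.22% in the control and 3.82% in the knockout, within overlapping clouds.

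The genome-encoded genes did not differ by the same factor. With a difference of 1.25-fold as the mark and at least 100 UMIs over both libraries, 5 of the 13 were past it as higher in the knockout and 0 as lower, where 10.9% of all 9615 genes tested were past it as higher and 8.87% as lower. The 5 were *mt-Nd2* (ratio 1.31, 1.28 to 1.35), *mt-Co3* (1.29, 1.26 to 1.31), *mt-Atp6* (1.28, 1.26 to 1.30), *mt-Cytb* (1.28, 1.25 to 1.31) and *mt-Co2* (1.26, 1.24 to 1.28). *mt-Nd3* (1.21), *mt-Nd1* (1.17), *mt-Co1* (1.11) and *mt-Nd5* (1.11) were between 1 and that mark. *mt-Nd4* (1.01, 0.984 to 1.05) and *mt-Nd4l* (1.00, 0.961 to 1.05), the pair on 1 messenger, had intervals that held 1. *mt-Atp8* lay below 1, with 0.0714% in the control and 0.0641% in the knockout (ratio 0.898, 0.851 to 0.947). *mt-Nd6* also lay below it, on few UMIs (0.873, 0.745 to 1.02).

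The make-up of the genome-encoded UMIs therefore differed between the libraries. *mt-Atp8* took 2.40% of them in the control and 1.77% in the knockout, a ratio of 0.738 (upper bound 0.779), although it shares its messenger with *mt-Atp6*, which took 22.5% and 23.7%. There were 0.106 *mt-Atp8* UMIs for each *mt-Atp6* UMI in control CR cells (0.103 to 0.110) and 0.0746 in knockout CR cells (0.0711 to 0.0782). The difference was seen at every level of the genome-encoded share. With CR barcodes ranked by that share and cut into 4 equal groups, the *mt-Atp8* part of the genome-encoded UMIs was between 2.25% and 2.49% in the control groups and between 1.71% and 1.89% in the knockout groups. Over the 4 depth classes it ran from 2.29% to 2.48% and from 1.64% to 1.80%. The other classes of barcodes gave smaller differences with wider intervals, at a ratio of 0.864 in droplets of 20 to 100 UMIs (0.745 to 1.00). *mt-Nd4l* and *mt-Nd4* kept their proportion to each other, at 0.492 and 0.487 *mt-Nd4l* UMIs per *mt-Nd4* UMI, and both took a smaller part in the knockout (ratios 0.826 and 0.835).

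**Figure D3:**
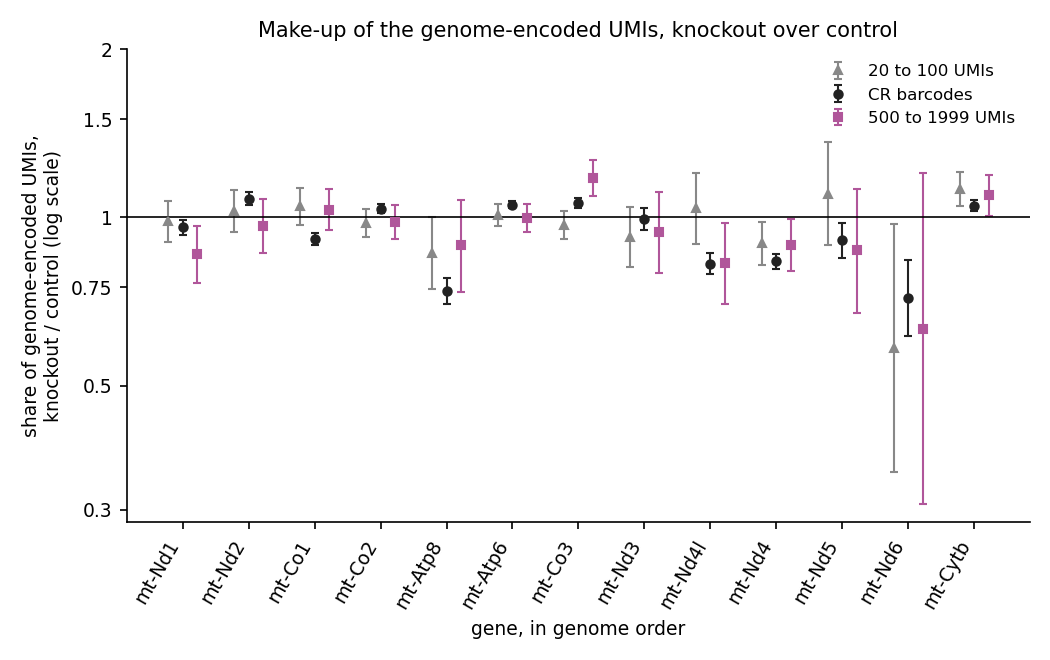
Ratio, knockout over control (log scale), of the part each gene takes of the genome-encoded UMIs, in genome order, for droplets of 20 to 100 UMIs, CR barcodes and barcodes of 500 to under 2000 UMIs. Bars are exact 95% intervals of counting error; in CR barcodes *mt-Atp8* stands at 0.738 and *mt-Nd6* at 0.718, while *mt-Nd2* stands at 1.08.

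Single mitoribosome genes were sparse. The highest, *Mrpl33* of the large subunit, had 68.9 CPM in control CR cells and 60.3 in knockout CR cells, or a UMI in 340 of 1003 and 124 of 390 barcodes. It was followed in the control by *Mrps33* (64.2 and 62.0), *Mrpl52* (61.9 and 49.4), *Mrps5* (58.4 and 53.8), *Mrps26* (54.0 and 62.6), *Mrpl48* (51.6 and 54.5) and *Mrpl41* (50.7 and 56.9). These are subunit proteins of the large (*Mrpl*) and small (*Mrps*) particles, and neighbours in this order mostly did not differ beyond their counting intervals. All 78 genes had at least 1 UMI in each library.

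Of the 72 mitoribosome genes with at least 100 UMIs over both libraries, 10 were past 1.25-fold as higher in the knockout and 5 as lower, 13.9% against the 10.9% of all genes for higher calls. The median ratio was 1.02, beside 0.999 over all genes tested. The *Mrpl* genes gave 8 higher and 3 lower of 46 (summed ratio 1.04, 1.00 to 1.08), and the *Mrps* genes 2 and 2 of 26 (1.01, 0.964 to 1.06). The highest by the interval were *Mrpl23*, with 40.4 CPM in the control and 56.5 in the knockout (ratio 1.399, 1.15 to 1.70), *Mrpl51* (20.9 and 31.0; 1.48, 1.13 to 1.94) and *Mrpl10* (11.6 and 18.4; 1.58, 1.10 to 2.26). *Mrpl46* (1.49) and *Mrpl9* (1.31) came next, but a single barcode held 24.7% of the *Mrpl9* UMIs of the knockout. At the other end stood *Mrpl52* (0.798, 0.656 to 0.965), with 61.9 and 49.4 CPM, and *Mrpl17* (0.746), *Mrps16* (0.711), *Mrpl33* (0.875) and *Mrpl3* (0.779), each with an interval that held 1.

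Genes that serve the same messengers were also looked at as lists, in CR cells of the knockout over the control. The lists are short, and their counts stand beside the 10.9% (higher) and 8.87% (lower) of all genes past 1.25-fold, to which several of them are near. Among 9 tested genes of mitochondrial DNA transcription and replication, 3 were past 1.25-fold as higher and 2 as lower. The terminator-family gene *Mterf2* was the furthest, on 64 and 47 UMIs (ratio 1.75, 1.17 to 2.58). Of 12 genes of RNA processing and stability, 0 were higher and 3 lower, with *Trmt10c*, a subunit of mitochondrial RNase P, at 14.9 CPM in the control and 8.51 in the knockout (0.571, 0.354 to 0.891). *Lrpprc*, which stabilises mitochondrial messengers, had a ratio of 0.896 (0.723 to 1.10). Of 9 translation factor genes 3 were higher and 0 lower, among them *Taco1*, a translational activator of *mt-Co1* (1.47, 1.05 to 2.05). Of 10 assembly genes 3 were higher and 0 lower: *Mpv17l2* (1.77, 1.19 to 2.63), *Malsu1* (1.28, 1.03 to 1.59) and *Mettl15* (1.27, 1.03 to 1.56). *Ppargc1a*, the PGC-1α coactivator of mitochondrial biogenesis, was the only 1 of 9 regulators past the mark, at 216.4 and 274.4 CPM (1.27, 1.16 to 1.38). Of 9 mitochondrial tRNA synthetase genes 2 were higher, as were 2 of 14 genes for mitochondrial carriers, membrane proteins, chaperones and citrate synthase. Among the latter, *Slc25a5* stood at 1.28, while *Vdac1* at 1.23 was just short of the mark. The 5 measured mitoribosome genes under other symbols, such as *Ptcd3* (1.18) and *Aurkaip1* (1.04), had 0 past it in either direction.

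Droplets with few UMIs are read here as RNA free in the suspension. In droplets of 20 to 100 UMIs (29040 control and 75813 knockout) the 2 origins parted. The genome-encoded share was 0.501% in the control and 0.644% in the knockout, 5.94-fold and 5.62-fold lower than in CR cells of the same library. The mitoribosome share was 0.665% and 0.626%, 3.31-fold (3.24 to 3.39) and 3.03-fold (2.94 to 3.11) higher than in CR cells. Hence there were 0.753 genome-encoded UMIs for each mitoribosome UMI in the control droplets and 1.03 in the knockout droplets, against 14.8 and 17.5 in CR cells. The cytosolic ribosomal protein genes were 5.39-fold higher in the control droplets and the nuclear genes of the respiratory chain 3.93-fold. The nuclear-retained RNAs were 8.86-fold lower. The 8 CR markers summed to 4555 CPM (control) and 5080 CPM (knockout) in these droplets, against 13504 and 13068 in CR cells. The 5 ependymal or choroid markers summed to 61.0 and 170.9 CPM, against 4.15 and 5.11. The 7 astrocyte markers summed to 132 and 255 CPM, against 134 and 113. The part of RNA from other cells in the ratios to CR cells was not tested.

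Every genome-encoded gene was lower in these droplets. All 13 were past 1.5-fold in both libraries, where 42.2% (control) and 38.8% (knockout) of all genes tested were. Their ratios lay close together, from 0.116 for *mt-Nd4l* to 0.204 for *mt-Nd3* in the control and from 0.132 for *mt-Nd6* to 0.206 for *mt-Atp8* in the knockout. Among the mitoribosome genes, 71 of 75 tested in the control and 68 of 74 in the knockout were past 1.5-fold as higher and 0 as lower, where 30.8% and 34.7% of all genes were higher. Their ratios were more spread. *Mrpl51* was 6.75-fold higher in the control droplets (5.55 to 8.25) and 4.52-fold in the knockout droplets. *Mrps14* (6.08 and 5.49), *Mrpl11* (5.95 and 4.87), *Mrps34* (5.71 and 4.99) and *Mrpl20* (5.29 and 4.53) were next in the control. At the low end, *Mrpl1* had a ratio of 1.01 in the control (0.785 to 1.29) and 1.45 in the knockout, *Mrps27* of 1.08 and 1.07, *Mrpl3* of 1.22 and 1.33, *Mrps5* of 1.46 and 1.75, and *Mrps6* of 1.68 and 2.03.

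Longer genes tended to have the lower ratios. Over the 75 tested mitoribosome genes of the control, the ratio and the genomic span of the gene had a Spearman correlation of -0.416, and over 74 of the knockout -0.390. This is across genes that share both libraries, and genes are not independent replicates. The 52 genes under 10 kb had a median ratio of 3.83 in the control, and the 7 genes of 40 kb or more had 1.72. Transcript length gave -0.211 and -0.208, and GC content 0.0279 and -0.0119.

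**Figure D4:**
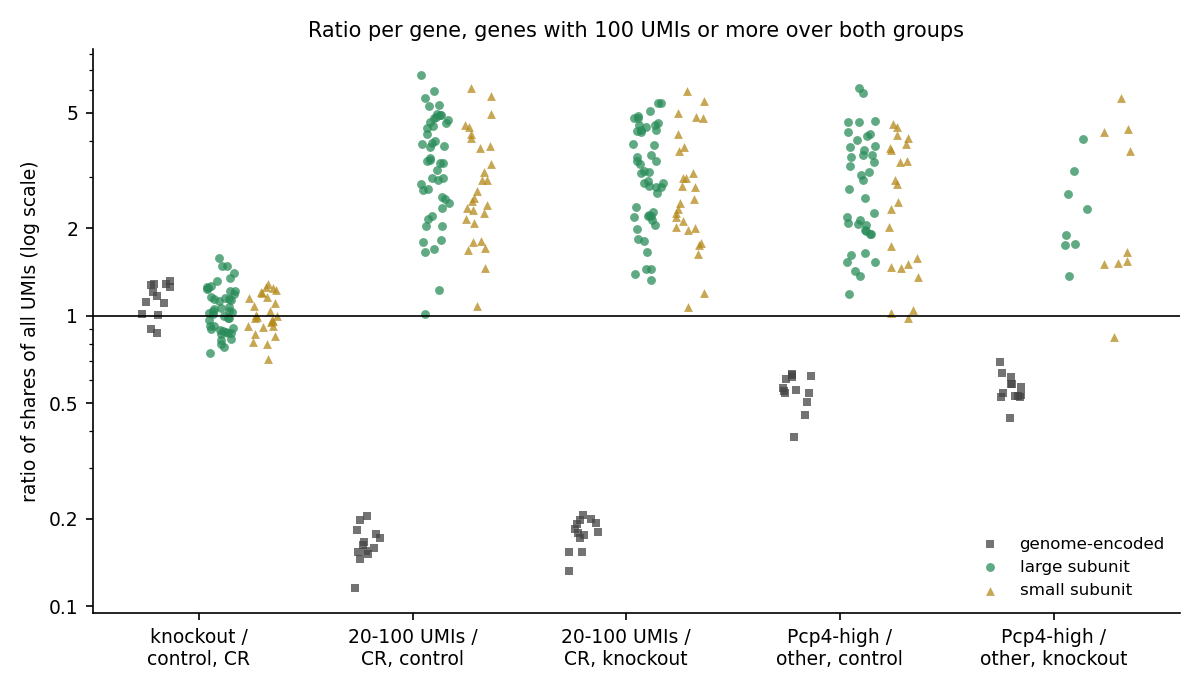
Ratio of shares of all UMIs (log scale) for each genome-encoded, large subunit and small subunit gene with at least 100 UMIs over both groups, in 5 comparisons. In the 4 comparisons between classes plotted here (droplets of 20 to 100 UMIs over CR barcodes and *Pcp4*-high over other CR barcodes, in each library) all genome-encoded genes lie below 1 and nearly all mitoribosome genes above it. Between genotypes the mitoribosome genes lie around 1, whereas most genome-encoded genes lie above it (summed ratio 1.22).

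The limits of 20 and 100 UMIs do not cut the 2 libraries at the same place. Among droplets of at least 20 and under 500 UMIs, the commonest number was 103 UMIs in the control and 43 in the knockout. Around those numbers (82 to 129 UMIs in 56691 control droplets, 34 to 54 in 52480 knockout droplets, limits chosen after seeing the data) the genome-encoded share was 0.565% and 0.511%, and the mitoribosome share 0.636% and 0.639%. The ratio of knockout to control for the genome-encoded genes was then 0.904 (0.885 to 0.923), where it was 1.28 (1.26 to 1.31) at 20 to 100 UMIs, 0.237 at 20 to 49 and 1.85 at 50 to 100. No direction between genotypes can be given for these droplets. The fall against CR cells held in both libraries under each of these windows, by 7.09-fold in the knockout and 5.27-fold in the control around the commonest number. The 693 control droplets of 20 to 49 UMIs, far below the commonest number there, still had 1.99% genome-encoded UMIs.

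Along the number of UMIs per barcode the 2 sets of genes took different courses. In the control the genome-encoded share was lowest at 70 to 79 UMIs (0.434%), rose to 0.975% at 140 to 159, 2.67% at 200 to 299 and 5.99% at 300 to under 500, reached 11.4% at 500 to under 1000 and then fell to 3.30% at 4000 to under 8000 and 1.67% at 16000 or more. In the knockout it was lowest at 20 to 29 UMIs (0.415%), passed 2.49% at 90 to 100 and 9.29% at 140 to 159, and reached 16.0% at 500 to under 1000 before 4.13% at 4000 to under 8000. The mitoribosome share went the other way below that peak, from 0.688% at 70 to 79 UMIs to 0.354% at 500 to under 1000 in the control. It was lowest, at 0.162% and 0.177%, at 4000 to under 8000 UMIs, and was 0.383% and 0.381% at 16000 or more. These bins take every barcode, with or without *Reln*, and include the *Pcp4*-high barcodes described below. Over CR barcodes, mitoribosome share and depth had a Spearman correlation of 0.0805 in the control and 0.0989 in the knockout. The Pearson correlation was 0.400 and 0.385. Without the *Pcp4*-high barcodes the Spearman correlation was -0.0723 and -0.0207, and the Pearson correlation 0.0695 and 0.175. The part of those barcodes in the values at 16000 UMIs or more was not tested.

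**Figure D5:**
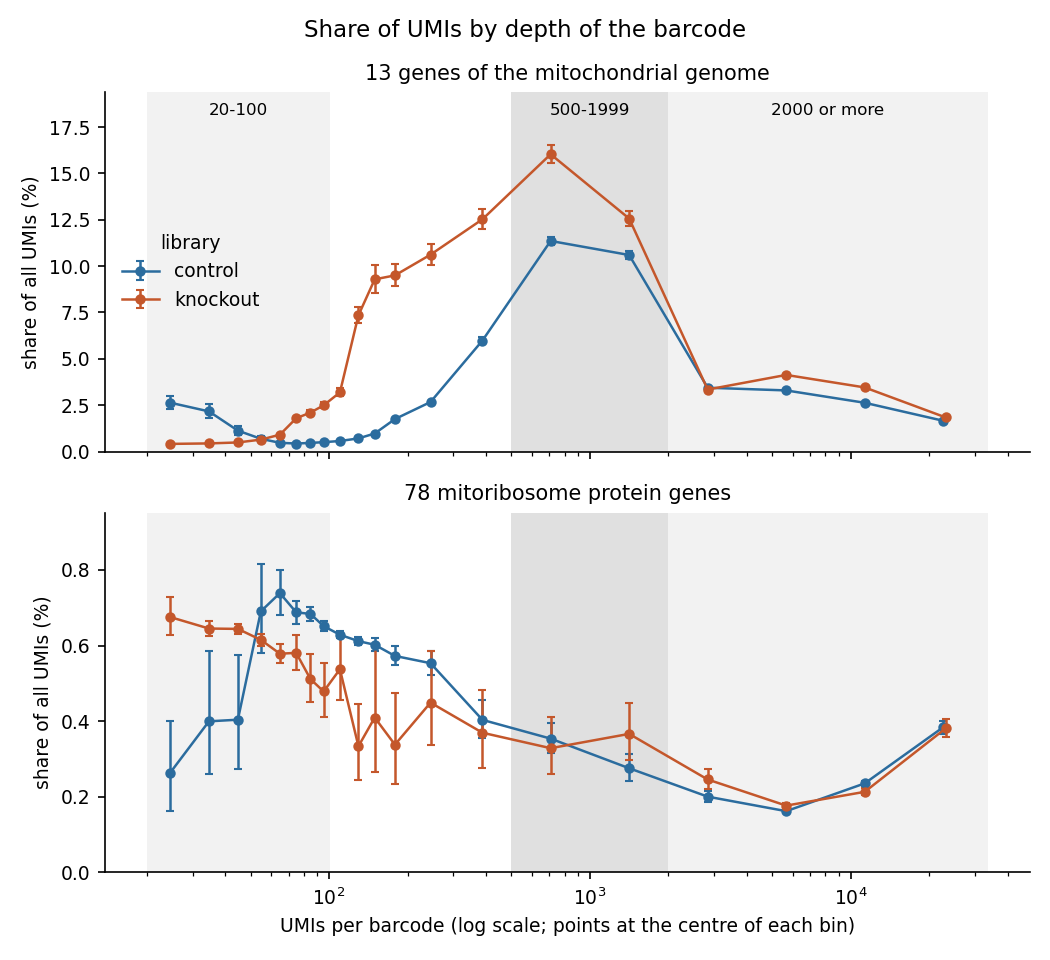
Share of all UMIs (per cent) of the 13 genome-encoded genes (top) and the 78 mitoribosome genes (bottom) against the UMIs per barcode (log scale), for all barcodes of 20 UMIs or more in bins; bars are exact 95% binomial intervals and grey bands mark the 3 classes compared. The genome-encoded share peaks at 500 to under 1000 UMIs, at 11.4% in the control and 16.0% in the knockout, where the mitoribosome share is 0.354% and 0.329%.

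Barcodes of 500 to under 2000 UMIs, between droplets and cells, numbered 191 in the control and 51 in the knockout. Their genome-encoded share was 10.98% and 14.2%, 3.69-fold (3.63 to 3.74) and 3.93-fold (3.83 to 4.02) that of CR cells. All 13 genes were past 1.5-fold as higher in both libraries, where 21.8% and 18.1% of all genes were, with ratios from 3.44 (*mt-Nd6*) to 4.15 (*mt-Nd5*) in the control and from 3.23 (*mt-Nd6*) to 4.95 (*mt-Co1*) in the knockout. The mitoribosome share was 1.57-fold (1.44 to 1.71) and 1.68-fold (1.44 to 1.96) higher, with 30 genes past 1.5-fold as higher and 8 as lower of 63 tested in the control, and 11 and 4 of 19 in the knockout. Over all genes, 43.2% (control) and 52.5% (knockout) were past it as lower. Single barcodes varied widely, with median genome-encoded shares of 12.1% (control) and 11.5% (knockout) and a highest value of 41.0% and 58.4%. The 8 CR markers summed to 13483 CPM (control) and 9321 CPM (knockout) here, against 13504 and 13068 in CR cells. Other cells were present: the 7 astrocyte markers summed to 7482 and 9664 CPM here, against 134 and 113 in CR cells, with 7 of 7 detected in both libraries. Their part in the result was not tested. Values are also given for barcodes chosen by *Reln*, but a single *Reln* UMI does not mark a CR cell. Of the droplets read here as free RNA, 6.65% in the control and 3.19% in the knockout also had a *Reln* UMI. With at least 1 *Reln* UMI (147 and 27 barcodes, a choice made after seeing the data), the astrocyte markers were at 947 CPM (control) and 180.3 CPM (knockout), and the genome-encoded share was 11.8% and 17.5%, 3.95-fold and 4.82-fold that of CR cells. The mitoribosome ratio was then 1.33 (1.19 to 1.47) and 1.26 (0.981 to 1.58). The barcodes with no *Reln* UMI (44 control and 24 knockout) had astrocyte markers at 35294.5 and 21648 CPM. Genome-encoded genes held 2550 of their 33518 UMIs in the control and 2222 of 21942 in the knockout.

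Within CR cells, the barcodes in which *Pcp4* made up at least 0.1% of UMIs (71 of 1003 and 25 of 390) had a lower genome-encoded and a higher mitoribosome share of UMIs than the rest. *Pcp4* encodes a small calmodulin regulator. In number of UMIs the median genome-encoded count per barcode was not lower, at 224 against 202 in the control and 286 against 271 in the knockout. The genome-encoded share was 1.80% against 3.16% in the control and 2.13% against 3.81% in the knockout (ratios 0.569 and 0.558). The mitoribosome share was 0.440% against 0.165% and 0.455% against 0.175% (ratios 2.67 and 2.61), so that the count of genome-encoded UMIs per mitoribosome UMI was 4.08 and 4.68 beside 19.2 and 21.8. In the control, 53 of 62 tested mitoribosome genes were past 1.5-fold as higher and 0 as lower, where 23.2% of all genes were higher. In the knockout it was 15 of 17, where 21% of all genes were. *Mrpl30* (ratio 6.08, 4.47 to 8.25), *Mrpl52* (5.83, 4.80 to 7.08), *Mrpl18* (4.63), *Mrps33* (4.59) and *Mrps14* (4.48) were the furthest in the control. *Mrps9* (0.985), *Mrps27* (1.02), *Mrps6* (1.04), *Mrpl1* (1.19) and *Mrps5* (1.46) differed least. All 13 genome-encoded genes lay past 1.5-fold as lower in the control, from 0.384 (*mt-Nd6*) to 0.631 (*mt-Co1*), and 12 of 13 in the knockout, where *mt-Co1* stood at 0.695. Over all genes, 29.3% and 33% were past it as lower. These barcodes were also deeper, with a median of 13502 UMIs in the control against 6097 in the rest, and in the knockout 14095 against 6452. The part of depth in this result was not tested.

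From cell to cell, the 2 sets hardly moved together. The Spearman correlation of genome-encoded and mitoribosome share was 0.00548 over 1003 control CR barcodes and 0.0148 over 390 knockout barcodes, and 0.110 and 0.116 without the *Pcp4*-high barcodes. Without those barcodes the genome-encoded share had correlations of 0.443 and 0.493 with the share of the nuclear respiratory chain genes, of 0.436 and 0.463 with that of the cytosolic ribosomal protein genes and of -0.380 and -0.517 with the nuclear-retained RNAs. The mitoribosome share, also without those barcodes, had correlations of 0.370 and 0.274 with the nuclear respiratory chain genes. With the cytosolic ribosomal protein genes it had 0.261 and 0.319, and with the nuclear-retained RNAs -0.185 and -0.105. Over all CR barcodes, correlations with the nuclear respiratory chain genes were 0.299 and 0.345 (genome-encoded) and 0.475 and 0.391 (mitoribosome). Barcodes share 1 library each, their shares share 1 total, and a mitoribosome share rests on about 10 UMIs. All these correlations are therefore given as a description only.

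Promoter sequence was available for 69 of the 78 mitoribosome genes, as windows of 250 bases before to 50 after the start of transcription (RefSeq, GRCm38.p6). The ETS-type word CCGGAAG, searched on both strands, was present in 26 of the 69 genes (37.7%), against 9.93% of 27025 genes with a window. The YY1-type word AAGATGGC was present in 12 (17.4%, against 3.19%) and the NRF1-type word GCGCATGC in 8 (11.6%, against 3.05%). The word TGAATGAA, bound by CIC, was present in 0 of 69, where 406 of the 27025 genes had it. These are matches of letters, not sites, and the words may lie anywhere in the window. The 27025 genes were not limited to genes expressed here. The comparison therefore cannot show whether the higher percentages are particular to mitoribosome genes. The last 100 bases before the start are shown for the most abundant mitoribosome gene of control CR cells, *Mrpl33* (chr5:31613851-31613950, plus strand). They are also shown for 2 of the genes named in more than 1 comparison, *Mrpl51* (chr6:125192100-125192199, plus strand) and *Mrpl52* (chr14:54426809-54426908, plus strand). Any of the 4 words, on either strand, is in capitals. Of the other genes named in more than 1 comparison, *Mrps14*, *Mrpl1*, *Mrps5* and *Mrps6* had none of the 4 words in their windows. *Mrpl3* and *Mrps27* had at least 1.

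Mrpl33: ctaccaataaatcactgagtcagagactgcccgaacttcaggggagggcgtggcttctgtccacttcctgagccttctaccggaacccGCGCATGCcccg

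Mrpl51: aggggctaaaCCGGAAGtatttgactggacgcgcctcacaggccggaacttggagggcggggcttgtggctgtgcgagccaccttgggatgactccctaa

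Mrpl52: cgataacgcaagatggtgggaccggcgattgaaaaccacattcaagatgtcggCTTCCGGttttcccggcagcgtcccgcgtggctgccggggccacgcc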

How the data were processed

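The deposited tables of the 2 libraries hold raw UMI counts per gene and barcode, made by the authors with Cell Ranger and containing all barcodes, with no cell calling. The study's methods and the submitters' processing notes name different versions and builds: the notes list Cell Ranger 8.0.1 and mm39, whereas the methods name an earlier version and mm10. Whether intronic reads were counted, and how reads over shared bases were treated, is not given in the sources used here. Positions are from GENCODE M21 (GRCm38) and promoters from RefSeq (GRCm38.p6).

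Levels in CPM are UMIs scaled to a total of 1000000 per class of barcodes. Counts were summed per class (16336796 UMIs in the control and 6777071 in the knockout library in all). CR barcodes needed at least 2000 UMIs and 5 *Reln* UMIs. Doublets were not removed. Shares of all UMIs have exact binomial 95% intervals, and ratios of shares have exact conditional intervals. Genes with at least 100 UMIs over both groups were called at 1.25-fold between libraries and at 1.5-fold between classes. With 1 library per genotype there was no test and no p-value. Genes named are all mt- genes, the most abundant *Mrp* genes in the control and the *Mrp* genes whose interval lay furthest from 1 in 3 comparisons. From the lists, only some of the most abundant and furthest genes are named. That choice among them followed no rule. The members and lists were chosen with earlier results of these data known. Alternatives changed the denominator, the choice of barcodes, the windows and the fold. The code for ratios and intervals was run on simulated independent counts. These lack the clustering of UMIs within barcodes, so that run cannot show how well the intervals cover the real counts. Python 3.11.15, numpy 2.4.6, scipy 1.17.1 and pandas 2.3.3 were used.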

Additional observations from a re-analysis of the deposited data

Results flagged for a closer look

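Barcodes outside the compared classes also held both sets of genes. Of those with at least 2000 UMIs, 8 in the control and 16 in the knockout had fewer than 5 *Reln* UMIs. Genome-encoded genes took 1.58% of the UMIs of the control barcodes and 5.24% of those of the knockout, and mitoribosome genes 0.768% and 0.453%. The 5 ependymal or choroid markers summed to 88242 and 58799.5 CPM there, against 4.15 and 5.11 in CR barcodes.

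Barcodes with over 100 and under 500 UMIs numbered 49419 in the control and 555 in the knockout. The genome-encoded share was 0.861% and 7.67%, and the mitoribosome share 0.612% and 0.431%. Among droplets of 20 to under 500 UMIs, the commonest number lies inside this range in the control and below it in the knockout. These values were picked out because the main comparisons leave those barcodes out. Some alternatives used them: the window around the commonest number, the subtraction of free RNA and the choice without a *Reln* requirement. No difference between them was tested.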

How the results depend on the processing

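No paired analysis was possible because each genotype is 1 library, and for the same reason no replicate could be left out. Of 84 alternatives, 35 left a value within the limit set for it and 49 moved it past that limit. For a ratio the limit was the counting interval of its main value. For a count of genes, which has no interval, it was a 1.5-fold difference. The mitoribosome share, knockout over control, crossed 1 under 1 of them, from 1.03 with an interval that held 1 to 0.994, and no ratio whose interval excluded 1 turned its direction. That interval covers counting error only, so many moves are small. Genome-encoded share, knockout over control (1.22): 1.23 with no *Reln* requirement, 1.24 at 4000 UMIs or more and 1.21 with equal weight per barcode. For CR barcodes within 3 median absolute deviations (MAD) of the median genome-encoded share of their library it was 1.203. That choice trims on the measured share itself. With control depth weighted as in the knockout the ratio was 1.24. With free RNA subtracted from droplets of over 100 UMIs in the control it was 1.21. Mitoribosome share: 0.994 with that weighting and 1.06 without *Pcp4*-high barcodes.

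For droplets over CR cells (control, then knockout), the genome-encoded ratio was 0.183 and 0.190 without mt-, *Rpl*, *Rps* and *Mrp* genes in the denominator, 0.173 and 0.184 within 3 MAD, 0.668 and 0.130 at 20 to 49 UMIs, 0.164 and 0.249 at 50 to 100, and 0.190 and 0.141 around the commonest number. The mitoribosome ratio was 3.60 and 3.23 with that denominator, 1.74 and 3.12 at 20 to 49, 2.88 at 50 to 100 (knockout) and 3.16 around the commonest number (control).

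For barcodes of 500 to under 2000 UMIs over CR cells, the genome-encoded ratio was 4.16 and 4.57 with that denominator, 3.78 and 4.07 within 3 MAD, 3.81 and 4.43 under 1000 UMIs, 3.56 and 3.47 from 1000, and 3.95 and 4.82 with a *Reln* UMI. The mitoribosome ratio in the control was 1.77, 1.76 under 1000 UMIs, 1.37 from 1000 and 1.33 with a *Reln* UMI (knockout 1.26). For *Pcp4*-high barcodes, the genome-encoded ratio was 0.601 and 0.588 with that denominator and 0.602 and 0.471 at a *Pcp4* limit of 0.2%, and the mitoribosome ratio was 2.82 with that denominator (control). Mitoribosome genes past the mark between genotypes (10 higher, 5 lower) numbered 1 and 0 at 1.5-fold, 0 and 1 at 500 UMIs or more, where fewer genes were tested, and 13 and 3 (of 65 tested, against 72) without *Pcp4*-high barcodes. The cause of the other moves was not tested. The *Reln* choice, the commonest-number window and the subtraction from droplets of over 100 UMIs were added after seeing the data.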
